A study of Homo sapiens with 24 samples.

Results

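Epithelial cells of the gut make chemokines, small secreted or membrane-bound proteins that guide leukocytes to the tissue. The genes described here are 10 chemokine genes that epithelia are known to make, chosen by name among the 58051 gene identifiers in the files: CXCL1, CXCL2, CXCL3, CXCL5, CXCL8, CXCL10, CXCL11, CXCL16, CX3CL1 and CCL20. The rule that picks them uses gene symbols and no measured value, although the choice was made with earlier results of these data known, and each symbol was found once. RNA was sequenced from HT29, HCT116 and SW480, 3 established human colorectal cancer cell lines. Each line was represented by 2 clones that kept CTNNB1, the gene of β-CATENIN (WT), and 2 clones in which an exon had been deleted from both CTNNB1 alleles with CRISPR/Cas9 (KO). Each clone went through 2 sequencing rounds, A and B, for a total of 24 libraries, 8 per line and 4 per line and genotype. The clones were WT 11, WT 40, KO 28 and KO 38 in HT29, WT 4, WT 6, KO 44 and KO 47 in HCT116, and WT 4, WT 5, KO 17 and KO 21 in SW480. The WT clones had also been grown from single cells, so that a genotype is represented by 2 clones of a line and libraries of a clone are not independent of each other. HT29 and SW480 carry APC mutations and HCT116 carries a CTNNB1 mutation, so WNT signaling was active in the WT clones of all lines. The authors report that SW480 KO clones turned senescent after long culture, which they did not see in HT29 or HCT116. Whether the sequenced SW480 KO cells were near that state was not tested. The cells grew in serum-containing medium, and the labels name no cytokine that would stimulate them.

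Chemokines are sorted by the spacing of their first cysteines into CXC, CC and CX3C forms. CXC chemokines with a glutamate-leucine-arginine (ELR) triplet ahead of these cysteines bind CXCR1 and CXCR2 and attract neutrophils, and CXCL1, CXCL2, CXCL3, CXCL5 and CXCL8 (interleukin-8) belong to them. CXCL10 and CXCL11 lack the triplet, are induced by interferons and bind CXCR3 on activated T cells. CXCL16 and CX3CL1 (fractalkine) are made as transmembrane proteins, bind CXCR6 and CX3CR1, and are released by the sheddases ADAM10 and ADAM17. CCL20 binds CCR6 on dendritic cell precursors and lymphocytes. Many of these genes are known targets of the transcription factor NF-κB.

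The 5 ELR+ genes and the 2 CXCR3 ligand genes lie on chromosome 4 of GRCh37 between positions 74606236 (CXCL8) and 76962568 (CXCL11). CXCL16 lies at chr17:4636828-4643223, CX3CL1 at chr16:57406389-57418956 and CCL20 at chr2:228670455-228682280. The coding sequences of CXCL1, CXCL2 and CXCL3 are close copies. Over 321 coding bases each, CXCL1 and CXCL2 were 93.5% identical, CXCL1 and CXCL3 90.7% and CXCL2 and CXCL3 94.4%, whereas CXCL1 and CXCL8 were 47.5% identical. The longest run of bases shared by their transcripts was 77 for CXCL1 and CXCL2, 55 for CXCL1 and CXCL3 and 97 for CXCL2 and CXCL3. The authors report paired reads that are longer than these shared runs. Whether reads were assigned to the wrong one of these 3 genes was not tested, so their separate levels are uncertain where they are low. The stretches below show this likeness around the ELR codons, which are in capitals, in the reference transcripts of GENCODE on GRCh37.
CXCL1 coding stretch, chr4:74735386-74735429, plus strand: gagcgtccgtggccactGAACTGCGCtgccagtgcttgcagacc
CXCL2 coding stretch, chr4:74964596-74964639, minus strand: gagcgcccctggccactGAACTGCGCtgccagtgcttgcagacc
CXCL3 coding stretch, chr4:74904087-74904130, minus strand: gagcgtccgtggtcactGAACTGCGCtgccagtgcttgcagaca
CXCL8 coding stretch, chr4:74607267-74607311, plus strand: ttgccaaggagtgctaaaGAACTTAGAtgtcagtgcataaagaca
The stretches of CXCL1, CXCL2 and CXCL3 hold the same 9 capital bases, and CXCL8 spells the leucine and arginine of the triplet with other codons. The exons of CXCL16 overlap those of MED11 by 76 bases and those of ZMYND15 by 96 bases on the other strand. The library kit does not mark strand, so reads in these stretches cannot be assigned to a gene by strand.

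RefSeq promoters, stretches across the start of the gene on GRCh38.p14, were found for 8 of the genes: CXCL1, CXCL2, CXCL3, CXCL5, CXCL8, CXCL10, CXCL11 and CCL20. The NF-κB core GGAATTTCC, searched on both strands, was in 7 of these 8 promoters and in 0.461% of 35116 promoters in the table. The longer NF-κB consensus was in 7 of the 8 and in 5.91% of all, and in 6 of them a match overlaps the core. The AP-1 motif TGANTCA was in CXCL8 and CXCL11 and in 7.71% of all promoters. The TCF/LEF motif CTTTGAT, which β-CATENIN's partners bind, was in CXCL8 and in 2.62% of all. The interferon response motif (ISRE) was in CXCL10 and in 3.57% of all, and TATAAA was in CXCL8, CXCL11 and CCL20 and in 11.5% of all. A match is a description of letters and not of binding. The promoters of CXCL1, CXCL2, CXCL3 and CXCL8, whose levels are followed most closely below, and that of CXCL10, with the ISRE match, are shown with all matches in capitals.
CXCL1 promoter, chr4:73869143-73869442, plus strand: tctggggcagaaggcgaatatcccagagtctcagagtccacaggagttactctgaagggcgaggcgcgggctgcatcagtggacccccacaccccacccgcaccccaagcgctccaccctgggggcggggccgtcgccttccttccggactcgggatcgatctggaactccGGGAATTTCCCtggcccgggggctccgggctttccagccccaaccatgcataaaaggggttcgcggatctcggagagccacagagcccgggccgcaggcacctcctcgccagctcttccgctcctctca
CXCL2 promoter, chr4:74099146-74099445, minus strand: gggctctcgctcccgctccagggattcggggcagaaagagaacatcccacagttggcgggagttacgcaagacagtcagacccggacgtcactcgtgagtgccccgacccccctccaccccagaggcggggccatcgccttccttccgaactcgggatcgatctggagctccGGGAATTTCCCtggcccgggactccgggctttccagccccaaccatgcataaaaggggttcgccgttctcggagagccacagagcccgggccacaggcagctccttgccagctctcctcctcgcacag
CXCL3 promoter, chr4:74038640-74038939, minus strand: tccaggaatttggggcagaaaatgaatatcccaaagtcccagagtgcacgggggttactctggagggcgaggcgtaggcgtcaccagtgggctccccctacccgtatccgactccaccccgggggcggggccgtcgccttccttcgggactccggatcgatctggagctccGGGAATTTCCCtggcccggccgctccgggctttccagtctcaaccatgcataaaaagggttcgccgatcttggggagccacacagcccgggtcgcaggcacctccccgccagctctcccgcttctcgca
CXCL8 promoter, chr4:73740319-73740618, plus strand: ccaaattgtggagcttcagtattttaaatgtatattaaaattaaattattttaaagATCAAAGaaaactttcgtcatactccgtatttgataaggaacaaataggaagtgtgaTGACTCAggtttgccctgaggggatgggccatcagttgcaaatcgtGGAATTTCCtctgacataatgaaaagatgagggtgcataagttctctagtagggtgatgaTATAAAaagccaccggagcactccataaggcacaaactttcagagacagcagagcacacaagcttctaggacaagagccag
CXCL10 promoter, chr4:76023448-76023747, minus strand: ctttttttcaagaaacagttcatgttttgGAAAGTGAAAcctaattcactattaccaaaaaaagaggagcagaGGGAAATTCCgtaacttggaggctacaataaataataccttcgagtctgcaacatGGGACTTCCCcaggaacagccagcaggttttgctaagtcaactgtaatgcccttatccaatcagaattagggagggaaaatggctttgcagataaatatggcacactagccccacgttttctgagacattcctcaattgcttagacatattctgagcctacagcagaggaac
In CXCL1 and CXCL3 the core stands at -78 to -70 from the start, in CXCL2 at -77 to -69 and in CXCL8 at -91 to -83. In CXCL8 the capitals are, from left to right, the TCF/LEF match, the AP-1 match, the NF-κB core and TATAAA. In CXCL10 the ISRE match comes first, followed by a stretch with the core on the reverse strand and a separate match to the consensus.

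Between 22297049 and 29068378 recovered reads per library fell on genes. Values are normalized counts, in which 1 read is worth between 0.917 and 1.30, and a level of 3 reads or fewer was taken as the floor. CTNNB1 fell from 6021 ± 99.3 to 299.8 ± 34.1 in HT29, from 11918 ± 999.9 to 217.7 ± 28.9 in HCT116 and from 46967 ± 4376 to 1024 ± 229 in SW480 (mean ± SD, n = 4 libraries). The WNT target AXIN2 was called lower in KO clones of all 3 lines, at log2 differences of -3.70, -5.25 and -4.74 in HT29, HCT116 and SW480 (limma, adjusted p = 0.0321, 1.17e-06 and 6.65e-09). The epithelial keratin genes KRT8, KRT18 and KRT19 were abundant in every group, and KRT8 made the largest share of the summed level of 9 epithelial markers, between 131456 and 784639. The markers of intestinal differentiation were uneven, with LGALS4 at or near the floor in HCT116 and SW480 (WT means 1.62 and 1.42), VIL1 at 3.03 in HCT116 WT, KRT20 at 0.484 in HCT116 KO and 0 in SW480 KO, and CDX2 at 5.06 in HT29 WT. KRT19, KRT20 and LGALS4 were called higher in HT29 KO clones, by 1.54, 2.34 and 2.21 on the log2 scale (limma, adjusted p = 0.00537, 0.0361 and 0.0441). CDH1 was called higher and KRT20 lower in HCT116 KO clones, and CDX2 lower in SW480 KO clones. The defining leukocyte marker PTPRC stayed at or below 4.28 in all 24 libraries. Single markers of other cell types moved with genotype within lines. In HT29 LUM was at 0 in the WT libraries and between 82.5 and 1125 in the KO libraries, and ITGAM rose from 3.47 ± 3.46 to 141.8 ± 83.4. In SW480 the summed endothelial list rose from 11.6 to 32.3 in WT libraries to 117.6 to 234 in KO libraries, with VWF as its highest gene. The leukocyte list summed to 24.3 to 332 in WT and 166.9 to 396 in KO libraries of HT29, and to 494 to 746 and 1429 to 1998 in SW480, where NCAM1 was its highest gene. In HT29 the fibroblast list rose from 14.2 to 26.9 in WT to 108.6 to 1212 in KO libraries. The part of these markers in the results below was not tested. In these bulk libraries, fewer cells making a transcript and less transcript per cell cannot be told apart.

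The first question was how much of each chemokine the lines made with CTNNB1 intact. CXCL16 had the highest mean of the 10 genes in HCT116 and SW480 and came next after CXCL8 in HT29. On the scale of normalized counts per kilobase of reference transcript, which allows genes to be compared, CXCL16 stood at 240.3 ± 68.8 in HT29, 434 ± 127 in HCT116 and 366 ± 29.4 in SW480 (mean ± SD, n = 4 libraries of 2 clones). CXCL8 reached 357 ± 329 per kilobase in HT29, but 5.21 ± 2.52 in HCT116 and 6.67 ± 1.61 in SW480. In HT29 the order continued with CXCL1 at 78.8 ± 20.7, CXCL11 at 57.4 ± 54.8 and CXCL3 at 23.8 ± 9.30 per kilobase. CXCL2, CXCL10, CX3CL1 and CCL20 had mean levels between 1.46 and 8.17 per kilobase, and CXCL5 was at 0. In HT29 CXCL8 and CXCL16 overlapped in their library values per kilobase, as did CXCL1 and CXCL11 and also CXCL11 and CXCL3, so these pairs have no order beyond their spread. In HCT116 the levels after CXCL16 were 12.5 ± 7.14 for CXCL3, 7.34 ± 1.85 for CXCL1, 5.21 ± 2.52 for CXCL8 and 4.80 ± 1.04 for CXCL2, each overlapping the next. In SW480 they were 6.67 ± 1.61 for CXCL8, 6.62 ± 3.16 for CX3CL1, 5.15 ± 2.44 for CXCL3 and 3.07 ± 2.73 for CXCL1, also overlapping. No read of CX3CL1, CCL20 or CXCL5 was found in the 4 HCT116 WT libraries, and none of CXCL10 in the 4 SW480 WT libraries. A count of 0 allows a level of up to 3 reads of a library, which is between 2.75 and 3.89 and covers counting error only.

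**Figure D1:**
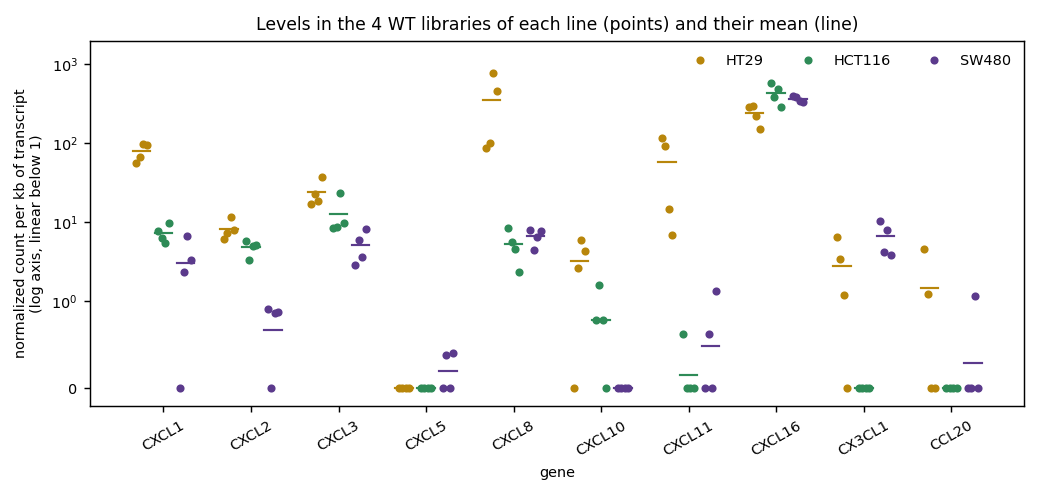
Normalized counts per kilobase of reference transcript (y axis, log scale above 1) of the 10 chemokine genes (x axis) in the 4 WT libraries of HT29 (ochre), HCT116 (green) and SW480 (purple), with each line's mean as a bar. CXCL16 lies between 151 and 582 in all 12 libraries, whereas CXCL8 lies between 88.3 and 774 in HT29 and at or below 8.38 in HCT116 and SW480.

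WT levels of a gene were compared between lines with limma over all 17205 genes that passed the filter (10 or more normalized counts in no fewer than 4 libraries). A gene was called at an adjusted p under 0.05 and a difference of more than 1 on the log2 scale. For HT29 against HCT116, 4 of the 6 tested chemokine genes were called, beside 37.5% of all genes tested. CXCL11 passed the filter only through its HT29 WT libraries, since no HCT116 or SW480 WT library exceeded 1.96. It was not tested when any of these HT29 libraries was left out. CXCL8 was higher in HT29 by 5.47 ± 0.62 (log2 difference ± SE, adjusted p = 3.76e-06). The HT29 WT libraries held 145.0, 164, 1270.5 and 766.6 normalized counts of it, and the HCT116 WT libraries between 3.81 and 13.8. CXCL1 was higher in HT29 by 3.27 ± 0.52 (adjusted p = 8.45e-05). CXCL11 was called higher in HT29, where 343 reads in all stood against 1 read in HCT116, a ratio of 384 with a 95% exact counting interval from 68.5 to 15221, and of 254 without HT29 WT 11A. CX3CL1 was called as well, at a mean of 9.06 ± 9.28 in HT29 against 0 in HCT116, which is at least 3.17-fold higher against the floor of 3 reads per library, and at least 1.76-fold without HT29 WT 11A. The HT29 levels of both genes came mostly from WT 11. The clone means of WT 11 and WT 40 were 153.9 and 15.9 for CXCL11 and 16.1 and 1.98 for CX3CL1. For CX3CL1 the WT 40 mean lies below the floor value of 2.86, so the bound rests on WT 11. CXCL16 was lower in HT29 than in HCT116, at -0.85 ± 0.23 (adjusted p = 0.00501), which is past the p threshold but not past the 2-fold threshold.

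For HT29 against SW480, 5 of the 6 tested genes were called, beside 40.1% of all genes tested, and CXCL11 was again testable only through the HT29 libraries. CXCL8, CXCL1 and CXCL3 were higher in HT29 by 5.06 ± 0.62, 4.68 ± 0.52 and 2.05 ± 0.40 (limma, adjusted p = 7.09e-06, 2.67e-06 and 0.000443). CXCL11 was also called higher in HT29, with 343 reads in all against 3 in SW480, a ratio of 123 with a 95% interval from 41.8 to 600.2. This ratio was 81.3 without HT29 WT 11A and 278 without SW480 WT 5B. The HT29 level again came mostly from WT 11, at a clone mean of 153.9 against 15.9 in WT 40. CX3CL1 was the only gene called lower in HT29 than in SW480, at -1.80 ± 0.73 (adjusted p = 0.0432), and it was called in 6 of 16 alternative settings. HCT116 against SW480 gave 3 of 6 tested genes, beside 40.2% of all genes tested. CXCL1 and CXCL3 were higher in HCT116 by 1.41 ± 0.52 and 1.11 ± 0.40 (adjusted p = 0.0279 and 0.0238), and held their calls in 8 and 10 of 16 alternatives. Both were carried past the filter by the HT29 WT libraries. CXCL1 had 37 reads in all in HCT116 and 15 in SW480, with overlapping libraries (6.47 to 11.4 and 0 to 7.72). CXCL3 had 58 and 23 reads, without overlap. CX3CL1 was called lower in HCT116, since SW480 had a mean of 21.7 ± 10.4, at least 7.61-fold above the floor in HCT116. By the same rule a large share of all genes differs between any pair of these lines, and the counts of chemokine genes are to be read against that share.

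The second question was how the genes changed when CTNNB1 was inactivated. The ELR+ genes went different ways by line: CXCL1 and CXCL3 were called lower in HT29 KO clones, no ELR+ gene was called in HCT116, and CXCL8 was called higher in SW480 KO clones. In HT29 CXCL1, a neutrophil attractant, measured 65.3, 79.1, 115.6 and 110.2 in WT 11A, 11B, 40A and 40B. It measured 23.1, 22.5, 7.59 and 2.59 in KO 28A, 28B, 38A and 38B. Every KO library lay below every WT library, and KO 38 lay below KO 28. The KO mean was 15.1% of the WT mean, a log2 difference of -2.99 ± 0.61 (limma over 14921 genes, adjusted p = 0.0411). CXCL3, a close copy of CXCL1, measured 18.2, 24.3, 19.8 and 40.1 in the WT libraries in the same order, and 5.03, 5.87, 9.49 and 5.19 in the KO libraries. Again no KO library reached the lowest WT library, and the log2 difference was -1.82 ± 0.39 (adjusted p = 0.0464). These 2 genes are the calls among 6 tested chemokine genes in HT29, where 0.402% of all genes tested were called lower and 1.90% higher. CXCL3 reached 10 in every WT library and no KO library, so it passed the filter only through the group where it was high. Its call is thus not to be read against those shares.

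CXCL8 had the highest level of the ELR+ genes in HT29 and did not pass the test there. It measured 145.0, 164, 1270.5 and 766.6 in WT 11A, 11B, 40A and 40B, and 147.9, 105.7, 32.3 and 20.7 in KO 28A, 28B, 38A and 38B. The WT 11 libraries and the KO 28 libraries lay close together, with KO 28A above WT 11A, and the distance between the genotypes came from WT 40 and KO 38. The log2 difference was -2.75 ± 0.86 (limma, adjusted p = 0.148), and 0.0027 with DESeq2's Wald test on the recovered reads. CXCL2 was lower in both groups, at 6.72, 8.11, 12.8 and 8.77 in the WT libraries and 3.02, 8.81, 2.85 and 5.19 in the KO libraries, which overlap. It was too low to be tested in HT29. CXCL5 was at 0 in 7 of the 8 HT29 libraries, with 1 read in KO 28B. The summed level of the 5 ELR+ genes was between 235 and 1419 in WT libraries of HT29 and between 33.7 and 179 in KO libraries, and CXCL8 made up between 59.6% and 89.6% of it in each library.

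The HT29 calls are close to the threshold and were lost in most settings. CXCL1 was called in 6 of 20 alternatives and CXCL3 in 4 of 14. CXCL3 had fewer because it missed the filter whenever a WT library or a WT clone was left out. Neither gene was called with the reads of a clone summed (adjusted p = 0.659 for CXCL1 and 0.709 for CXCL3) or with the clone as a random effect (0.119 and 0.288). Leaving out a single HT29 library left 0 calls in 7 of 8 cases, and 1 call without KO 38B. Over all these alternatives the log2 difference stayed between -4.04 and -1.94 for CXCL1 and between -2.01 and -1.39 for CXCL3. The round as a replicate block left 0 calls (adjusted p = 0.0745 and 0.0819). DESeq2's Wald test on the recovered reads gave the lowest adjusted p of these alternatives, 4.63e-05 for CXCL1 and 0.00582 for CXCL3.

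In HCT116 none of the 4 tested chemokine genes was called, whereas 3.17% of all 15404 genes tested were called higher and 1.89% lower. The limma fit gave 3 of the 4 an unadjusted p under 0.05, all with a higher mean in KO clones, and edgeR and DESeq2 also called 0. CXCL1 measured 9.17, 7.42, 6.47 and 11.4 in WT 4A, 4B, 6A and 6B and 37.3, 23.5, 15.0 and 8.56 in KO 44A, 44B, 47A and 47B. The KO 47B library lay within the WT range. The log2 difference was 1.04 ± 0.43 (adjusted p = 0.133), and 1.39 with an adjusted p of 0.0350 without KO 47B. CXCL3 differed by 0.90 ± 0.37 (adjusted p = 0.132) and CXCL8 by 0.73 ± 0.48 (adjusted p = 0.343), with overlapping libraries in both. Without WT 6A, the WT library with the highest CXCL3 level, CXCL3 was called at a log2 difference of 1.22 and an adjusted p of 0.0484.

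CXCL2, another neutrophil attractant, separated by genotype in HCT116 by a narrow margin and missed the filter on low values. It measured 6.42, 3.71, 5.54 and 5.71 in the WT libraries and 30.5, 20.7, 34.3 and 7.61 in KO 44A, 44B, 47A and 47B. All KO libraries lay above all WT libraries, and the KO mean was 4.35-fold the WT mean. The closest libraries were KO 47B with 8 reads and WT 4A with 7. Fitted without the filter, the log2 difference was 1.77 ± 0.46 (limma, adjusted p = 0.00392). In that fit the adjusted p of CXCL16 was 8.02e-06, against 0.0728 with the filter. Such p-values thus depend strongly on the filter. CXCL2 was the 1 member of the 5 with a summed level of at least 10 whose libraries separated upward in HCT116. Of all genes of that level, 8.90% separated upward and 7.17% downward.

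In SW480 the ELR+ genes were low, and CXCL8 was the 1 gene of the 5 that could be tested, and was called higher in KO clones. It measured 13.1, 7.35, 10.6 and 12.7 in WT 4A, 4B, 5A and 5B and 20.7, 18.3, 27.1 and 26.9 in KO 17A, 17B, 21A and 21B, with no overlap. It rose by 1.03 ± 0.27 on the log2 scale (limma over 16325 genes, adjusted p = 0.0098), which is just past the 2-fold threshold. The call was kept in 12 of 20 alternatives and lost, for instance, with the clone as a random effect (adjusted p = 0.083). CXCL2 had 3 reads in all in the WT libraries and 33 in the KO libraries. Its values were 1.01, 0, 0.965 and 0.979 in WT and 4.70, 12.8, 5.60 and 7.68 in KO libraries, a ratio of reads of 10.7 with a 95% exact counting interval from 3.35 to 54.3. CXCL1 measured 0, 2.76, 7.72 and 3.91 in WT and 24.5, 22.0, 6.54 and 11.5 in KO libraries, and KO 21A lay within the WT range. Neither CXCL1 nor CXCL2 passed the filter on low values. Fitted without it, both were called higher (limma, adjusted p = 0.0153 and 0.00183), CXCL1 with a KO mean 4.48-fold the WT mean, or 7.25-fold without WT 5A, the WT library with the highest value. CXCL3 was between 3.03 and 8.81 in WT and between 6.72 and 15.6 in KO libraries, which overlap, and CXCL5 was at or near 0 in both groups.

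**Figure D2:**
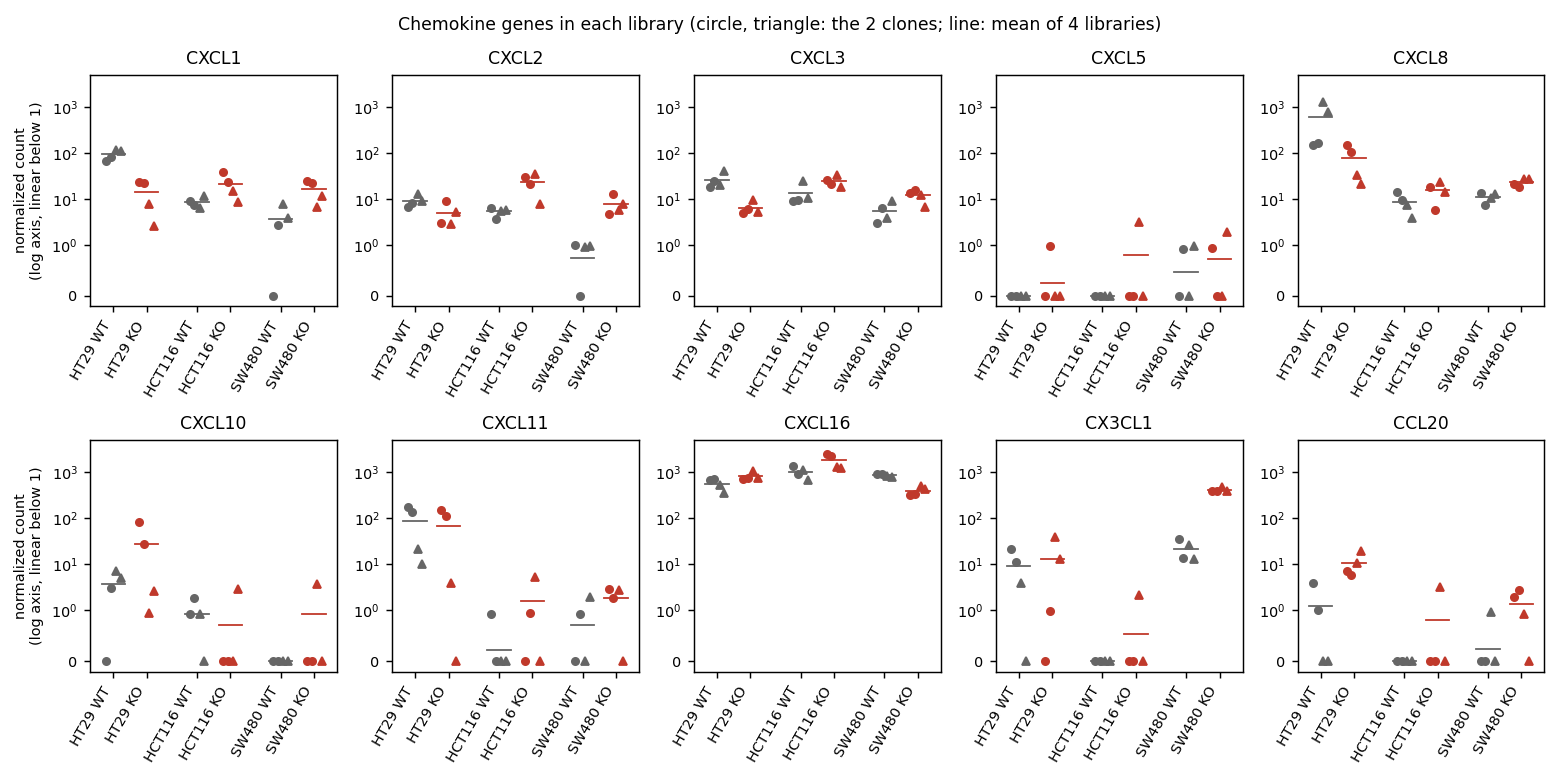
Normalized counts (y axis, log scale above 1) of each chemokine gene in the 24 libraries, by line and genotype (x axis), with WT in grey, KO in red, the 2 clones of a group as circles and triangles, and the mean as a bar. CXCL1 and CXCL3 separate downward in HT29 KO, CX3CL1 and CXCL8 upward and CXCL16 downward in SW480 KO, and CXCL8, CXCL10, CXCL11 and CX3CL1 split by clone in HT29.

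The KO effects of the lines were then set against each other in a fit over all 24 libraries, in which 18609 genes and 7 of the chemokine genes were tested. The KO effect on 4 ELR+ genes differed between HT29 and HCT116, beside 5.39% of all genes tested, and each of these was lower in HT29. The difference of the effects was -4.03 ± 0.87 for CXCL1, -3.48 ± 0.89 for CXCL8, -2.72 ± 0.52 for CXCL3 and -2.61 ± 0.60 for CXCL2 on the log2 scale (limma, adjusted p = 0.00537, 0.0181, 0.00203 and 0.00865). Between HT29 and SW480 the effect differed for 6 of the 7 genes, beside 12.3% of all genes tested. The ELR+ genes were again lower in HT29, at -5.09 ± 0.87 for CXCL1, -3.78 ± 0.89 for CXCL8, -3.13 ± 0.60 for CXCL2 and -2.83 ± 0.52 for CXCL3 (adjusted p = 0.000204, 0.00443, 0.000655 and 0.000469). Between HCT116 and SW480 no ELR+ gene differed in its effect by this rule (adjusted p between 0.503 and 0.929). These comparisons share the libraries of a line. With the reads of a clone summed, 0 genes were called between HT29 and HCT116, and CXCL2 and CXCL3 were still called between HT29 and SW480. With the clone as a random effect, CXCL1 was the 1 gene still called between HT29 and HCT116 (adjusted p = 0.0383), and CXCL2, CXCL3 and CXCL8 were not (adjusted p = 0.152, 0.0583 and 0.0719).

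**Figure D3:**
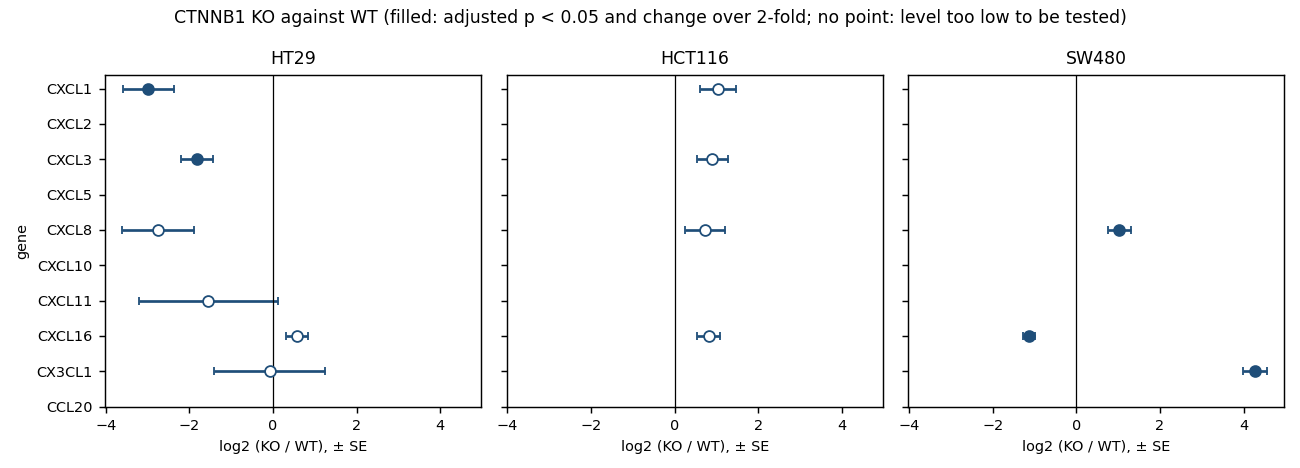
Log2 difference of KO against WT with its SE (x axis) for each tested chemokine gene (y axis) in HT29, HCT116 and SW480, with filled points for called genes and no point where the level was too low to be tested. CXCL1 and CXCL3 are filled on the negative side in HT29 at -2.99 and -1.82, no point is filled in HCT116, and CX3CL1 is filled at 4.28, CXCL8 at 1.03 and CXCL16 at -1.14 in SW480.

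Among the transmembrane chemokines, CX3CL1 in SW480 showed the largest fitted rise of those chosen chemokine genes that passed the filter in any line. In SW480 it measured 34.4, 13.8, 26.1 and 12.7 in WT 4A, 4B, 5A and 5B and 396, 385, 462 and 391 in KO 17A, 17B, 21A and 21B. The groups stood far apart and the KO clones were alike, at clone means of 390.7 and 426 for KO 17 and KO 21. The KO mean was 18.8-fold the WT mean, a rise of 4.28 ± 0.29 on the log2 scale (limma, adjusted p = 9.94e-07). The gene was called in all 21 alternatives run for this comparison, with log2 differences between 4.03 and 4.53. In HCT116 CX3CL1 had 2 reads in 8 libraries, both in KO 47A. In HT29 it split by clone rather than by genotype, at 21.1, 11.2, 3.95 and 0 in the WT libraries and 0, 0.978, 37.9 and 13.0 in the KO libraries, and the log2 difference was -0.08 ± 1.33 (adjusted p = 0.984). The effect was lower in HT29 than in SW480, at -4.36 ± 1.24 (adjusted p = 0.0181), a call made in 20 of 24 alternatives and lost with the clone as a random effect (adjusted p = 0.0691). For HCT116 against SW480 the fitted difference was -3.87 ± 1.24 (adjusted p = 0.0414), but it rests on a line without expression and was called in 4 of 24 alternatives.

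CXCL16, the other transmembrane chemokine, went the opposite way in SW480. It measured 919.8, 897.8, 807 and 779 in the WT libraries and 312, 327, 493 and 437 in KO 17A, 17B, 21A and 21B. All KO libraries lay below all WT libraries, and KO 17 lay below KO 21. The KO mean was 46.1% of the WT mean, a log2 difference of -1.14 ± 0.15 (adjusted p = 0.00011), which was called in 20 of 21 alternatives. Without the clone KO 17 it was -0.87, short of the 2-fold threshold. With CXCL8, CXCL16 and CX3CL1, all 3 chemokine genes tested in SW480 were called, where 10.7% of all genes tested were called higher and 6.76% lower. CXCL16 made up between 94.1% and 96.5% of the summed level of the 10 genes in SW480 WT libraries and between 40.2% and 49.5% in KO libraries.

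In HT29 and HCT116 CXCL16 had a higher mean in KO clones and was not called. In HT29 it measured 679, 689, 515 and 351 in the WT and 690.0, 748.5, 1069 and 756 in the KO libraries. The lowest KO library and the highest WT library were nearly equal, and the log2 difference was 0.58 ± 0.25 (adjusted p = 0.309). In HCT116 it measured 1352, 895, 1126 and 665 in WT 4A, 4B, 6A and 6B and 2434, 2228, 1296 and 1239 in KO 44A, 44B, 47A and 47B. The round A library was above the round B library in each of the 4 clones, and KO 47 overlapped WT 4. The log2 difference was 0.82 ± 0.27 (adjusted p = 0.0728, and 0.0694 with the round as a replicate block). Without the clone KO 47 it was 1.25 with an adjusted p of 0.00679, and without KO 44 it was 0.38 with an adjusted p of 0.401. The KO effect on CXCL16 was higher in HT29 than in SW480 by 1.71 ± 0.36 and higher in HCT116 than in SW480 by 1.95 ± 0.36 (adjusted p = 0.00141 and 0.000472). For HCT116 against SW480, CXCL16 and CX3CL1 were the 2 called genes of 7 tested, beside 10.0% of all genes tested. With the reads of a clone summed, neither was called (adjusted p = 0.0778 for CXCL16). The sheddases ADAM10 and ADAM17 were expressed in all lines. ADAM10 rose in SW480 KO clones from 2787 ± 190.0 to 4743 ± 465 (log2 difference 0.76 ± 0.08, adjusted p = 3.53e-05), less than 2-fold, and neither gene was called in any line.

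The CXCR3 ligands were found in HT29 and near the floor elsewhere, and in HT29 they followed the clone. CXCL11 measured 170.9, 136.8, 21.7 and 10.0 in WT 11A, 11B, 40A and 40B and 149.9, 111.5, 3.79 and 0 in KO 28A, 28B, 38A and 38B. WT 11 and KO 28 were high and WT 40 and KO 38 low, so that the genotypes overlapped, and the KO difference was -1.55 ± 1.67 (adjusted p = 0.667). CXCL10 measured 0, 3.04, 6.92 and 5.01 in the WT libraries and 80.5, 27.4, 0.949 and 2.59 in the KO libraries, high in KO 28 alone. In HCT116 and SW480 CXCL10 did not exceed 3.74 and CXCL11 did not exceed 5.35 in any library.

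Clones of 1 genotype were compared within each line. Between HT29 KO 28 and KO 38, 4 of 6 tested chemokine genes were called, beside 12.5% of all genes tested. CXCL11, CXCL8 and CXCL1 were higher in KO 28 by 5.90 ± 0.72, 2.23 ± 0.34 and 2.10 ± 0.45 (limma, adjusted p = 0.00154, 0.00449 and 0.0187), and CX3CL1 was lower, at -4.05 ± 0.92 (adjusted p = 0.0236). Without the filter, CXCL10 was also called higher in KO 28, by 4.18 ± 0.81 (adjusted p = 0.00758). Between HT29 WT 11 and WT 40, 2 genes were called, beside 7.58% of all genes. CXCL8 was lower in WT 11, at -2.67 ± 0.34, and CXCL11 was higher by 3.28 ± 0.72 (adjusted p = 0.00276 and 0.029). For CXCL8 these clone differences stand beside a KO difference of -2.75. The KO clone calls were made in 8 of 10 alternatives for CXCL1, 9 of 10 for CXCL8, 10 of 10 for CXCL11 and 5 of 8 for CX3CL1, and the WT clone calls in 10 of 10 for CXCL8 and 5 of 10 for CXCL11. Without KO 28A, CXCL8 lost its call between the KO clones (adjusted p = 0.053).

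No chemokine gene was called between clones of the other lines. All genes tested gave 3.28% for HCT116 KO 44 against KO 47, 1.44% for HCT116 WT 4 against WT 6, 4.61% for SW480 KO 17 against KO 21 and 1.97% for SW480 WT 4 against WT 5. With limma, CXCL1 and CXCL16 had an unadjusted p under 0.05 between the HCT116 KO clones, 0 genes between the HCT116 WT clones, CXCL16 between the SW480 KO clones and 0 between the SW480 WT clones, and edgeR and DESeq2 called 0 in each. CXCL16 was lower in SW480 KO 17 than in KO 21, at -0.54 ± 0.10 (adjusted p = 0.000777), less than 2-fold.

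CCL20, which attracts CCR6-bearing cells, was low in every group. In HT29 it measured 3.84, 1.01, 0 and 0 in the WT libraries and 7.04, 5.87, 10.4 and 19.4 in the KO libraries, all above the WT libraries, at a mean of 1.21 ± 1.82 against 10.7 ± 6.15. It did not pass the filter, and without the filter it was not called in HT29. CCL20 and CXCL16 were the 2 genes of 9 with a summed level of at least 10 that separated upward in HT29, where 7.08% of all such genes did. CXCL1 and CXCL3 were the 2 that separated downward, where 4.12% of such genes did. In SW480, 3 of 7 such genes separated upward (CXCL2, CXCL8 and CX3CL1) and 1 downward (CXCL16), where 20.3% of all such genes separated upward and 17.7% downward. CXCL5 did not exceed 3.21 in any of the 24 libraries.

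The receptors of these chemokines were mostly near the floor in the same cells. CXCR1 did not exceed 6.42, CXCR2 5.87, CXCR3 6.85, CCR6 1.07 and CX3CR1 9.63 in any library. CXCR6, the receptor of CXCL16, was an exception in SW480, where it fell from 124.3 ± 13.6 to 9.39 ± 4.43 (log2 difference -3.67 ± 0.27, limma, adjusted p = 2.02e-06). Of 23 receptor genes, 6 were tested in SW480 and 5 were called lower and 1 higher, beside 6.76% and 10.7% of all genes tested. CXCR4, the receptor of CXCL12, fell from 6638 ± 506 to 161.0 ± 41.1 (adjusted p = 2.76e-09), and CCRL2, an atypical receptor that presents chemerin, rose by 4.96 on the log2 scale. In HT29 CXCR4 went the other way in 1 clone and missed the filter, at 0 to 2.03 in the WT libraries, 4.02 and 0 in KO 28A and 28B, and 1080 and 1389 in KO 38A and 38B. In HT29 3 receptor genes were tested and 0 called, of which 0 had a p under 0.05 in limma, and in HCT116 none passed the filter.

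The other 34 chemokine ligand genes were mostly silent. In SW480 5 of them were tested, and 3 were called higher and 1 lower, beside 10.7% and 6.76% of all genes tested. CXCL14, a chemokine of epithelia, fell from 1198 ± 67.5 to 9.39 ± 4.58, and CCL2, a monocyte attractant, rose from 4.98 ± 4.63 to 176.5 ± 26.3 (log2 differences -7.01 ± 0.36 and 5.31 ± 0.56, adjusted p = 2.09e-07 and 3.2e-05). CCL26, an eosinophil attractant, rose by 2.36 ± 0.21. In HT29 2 were tested and 0 called with limma, although both had an unadjusted p under 0.05, and none passed the filter in HCT116.

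Genes around NF-κB and interferon signaling were counted as well, since both systems are known to induce chemokines. Of 14 tested NF-κB subunits and upstream kinases, 2 were called higher in SW480, MAP3K14 by 1.59 and NFKB2 by 1.11 on the log2 scale, 1 in HCT116, MAP3K14 by 1.90, and 0 in HT29. The median log2 difference of this list was 0.22 in SW480, 0.05 in HCT116 and 0.03 in HT29, beside -0.00419, -0.01 and 0.03 over all genes tested. Of the NF-κB induced targets other than chemokines, 8 of 14 tested were called higher and 0 lower in SW480, beside 10.7% and 6.76% of all genes tested, with a median of 1.48. The cytokine gene CSF2 rose by 6.09, the apoptosis inhibitor gene BIRC3 by 3.77 and IL32 by 3.03 (limma, adjusted p = 2.21e-07, 1.38e-06 and 0.000269). In HCT116 1 of 12 was called higher, TNFAIP2 by 1.47, and 1 lower, the adhesion molecule gene ICAM1 at -1.92. In HT29 0 of 11 were called.

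Of the interferon-induced genes, 12 of 19 tested were called higher and 1 lower in SW480, beside the same 10.7% and 6.76%, with a median log2 difference of 1.96. GBP1 and GBP2, which encode guanylate-binding proteins, rose by 6.49 and 4.71, the RNA sensor gene IFIH1 by 4.68, and OAS2 fell by 1.46 (limma, adjusted p = 4.49e-06, 1.82e-07, 5.51e-08 and 0.00335). In the same SW480 KO libraries the interferon-inducible CXCL10 and CXCL11 stayed at or below 3.74 and 2.82. In HCT116 2 of 15 were called higher, IFIT3 from 35.7 ± 11.6 to 110.9 ± 58.7 and IFIH1 by 1.22 on the log2 scale, and in HT29 1 of 21, GBP2 by 1.86. The medians were -0.06 in HCT116 and 1.71 in HT29. The HT29 rise in the median was seen in 1 KO clone, at 3.22 for KO 28 alone and -0.20 for KO 38 alone against the WT libraries. MX1, for example, measured 4264 and 2691 in KO 28A and 28B, 25.6 and 35.0 in KO 38A and 38B, and between 19.3 and 63.2 in the WT libraries. CXCL10 was high in the same KO 28 libraries. Of the WNT target genes, 4 of 7 tested were called lower in HT29, 3 of 8 in HCT116 and 8 of 9 in SW480, beside 0.402%, 1.89% and 6.76% of all genes tested, and 0 were called higher. DKK1, a WNT inhibitor gene, had a higher mean in KO clones of each line, at 768 against 4913 in HT29, and was not called in any line (log2 difference 3.03 in HT29, adjusted p = 0.0856). No test of a list as a whole was run, and the counts describe the lists only.

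**Figure D4:**
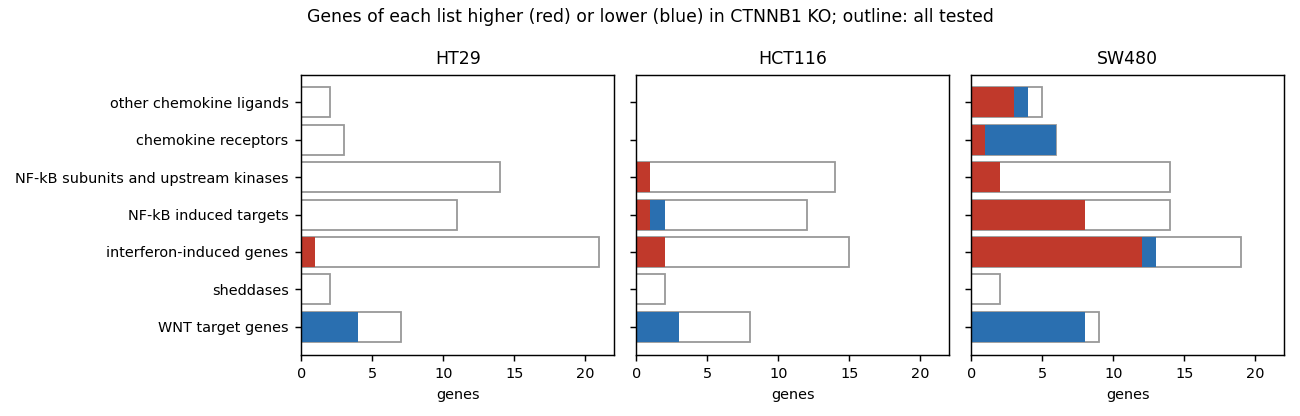
Number of genes (x axis) of each list (y axis) that were called higher (red) or lower (blue) in KO clones of HT29, HCT116 and SW480, with all tested genes as an outline. In SW480, 8 of 14 NF-κB induced targets and 12 of 19 interferon-induced genes are red, and 5 of 6 receptors are blue.

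Over the 24 libraries together, CXCL8 had the highest mean level of the ELR+ genes, although not in each line. In HCT116 WT libraries the means of CXCL3 (13.5) and CXCL1 (8.62) were above that of CXCL8 (8.56), and in HCT116 KO libraries CXCL8 (15.3) was below CXCL1, CXCL2 and CXCL3. The genes whose log2 levels followed it most closely over the 24 libraries, among 18608 compared, were RASA1 (Pearson r = 0.930), TMEM87A (0.913), LIPE (0.912), ADGRL4 (0.902) and GRK2 (0.900). The 24 points share lines and clones, so these values are a description. Within HT29 all 5 lay between 0.877 and 0.924. Within HCT116 r was -0.04 for RASA1, 0.06 for TMEM87A, -0.21 for LIPE, 0.56 for ADGRL4 and 0.24 for GRK2. Within SW480 it was 0.69 for RASA1, 0.53 for TMEM87A, -0.45 for LIPE and 0.93 for GRK2, and none could be computed for ADGRL4.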

How the data were processed

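RNA of 24 libraries was sequenced. Per the labels, reads were aligned to GRCh37 with STAR 2.7.5b and counted with featureCounts 2.0.1, and DESeq2 2.11.40.6 is named in the submitters' processing notes. The gene annotation used is not given in the sources used here. The authors deposited the counts divided by a size factor per library, a normalized signal that is not whole. Dividing each library by its smallest positive value gave whole reads for 100% of values (tolerance 0.05). The deposited tables of the authors' own comparisons hold log2 fold changes and p-values and were not used.

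Values were tested as log2(value + 1) with limma 3.58.1 (trend, robust; R 4.3.3) over all genes that reached 10 normalized counts in 4 or more libraries, with Benjamini-Hochberg adjustment. Such fold changes understate those of low genes. A gene was called at an adjusted p under 0.05 and a log2 difference above 1. Fits were tested on simulated data. Alternatives were edgeR 4.0.16 and DESeq2 1.42.0 on recovered reads, pseudocounts of 0.1 and 5, other filters, the round as a replicate block, clone-level fits, and leaving out libraries or clones. A group is 4 libraries of 2 clones, and p-values measure the spread between libraries. Same-round libraries deviated together in HCT116 (r between 0.182 and 0.374 in 6 of 6 pairs), and the round block was run as an alternative. The p-values given are from fits without the block, and the block changed no HCT116 call. In HT29 r was over 0.1 in 2 of 6 pairs, and there the block removed the calls of CXCL1 and CXCL3. Ratios of low counts carry 95% exact intervals for counting error only.

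The chemokine genes and gene lists were chosen with earlier results of these data known. Named were the 10 genes, CTNNB1, AXIN2 and, per list and line, at most 3 called genes with the largest log2 difference. OAS2, ADAM10, PTPRC, NCAM1, the epithelial markers, MX1, DKK1 and the receptors not called were named after their values were seen. Fold changes without single libraries and list medians by KO clone were added after seeing the data. Of 167 list genes, 2 had no match. Gene positions and coding stretches are from GENCODE 44 lifted to GRCh37, and promoters from RefSeq on GRCh38.p14. Protein sequences were not analysed here.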

Additional observations from a re-analysis of the deposited data

Results flagged for a closer look

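In 11 of 55 groups of 4 libraries, 1 library stood apart from the other 3 (Dixon's test, which by chance marks about 1 in 20 groups of continuous values). Where the other libraries are all at 0, the test marks any read in the remaining one. The 11 of 55 can therefore not be read against that rate. Most of the marked groups are a few reads in a single library. HCT116 KO 47A held 3.21 normalized counts of CXCL5, 3.21 of CCL20 and 2.14 of CX3CL1 against 0 in the other KO libraries. CXCL10 stood at 2.85 in HCT116 KO 47B and at 3.74 in SW480 KO 21A. CXCL5 stood at 0.978 in HT29 KO 28B, CXCL11 at 0.917 in HCT116 WT 4A and CCL20 at 0.965 in SW480 WT 5A, each against 0. CXCL2 stood at 0 in SW480 WT 4B. At higher levels, CXCL3 stood at 24.9 in HCT116 WT 6A, above its clone mate 6B at 10.5, and CX3CL1 stood at 462 in SW480 KO 21A.

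The KO effect was called different between lines in a fit of the difference itself (limma, 24 libraries), which counts the libraries of a clone separately. Between HT29 and HCT116 it differed by -4.03 for CXCL1, -2.61 for CXCL2, -2.72 for CXCL3 and -3.48 for CXCL8 on the log2 scale. Between HT29 and SW480 it differed by -5.09 for CXCL1, -3.13 for CXCL2, -2.83 for CXCL3, -3.78 for CXCL8, 1.71 for CXCL16 and -4.36 for CX3CL1. Between HCT116 and SW480 it differed by 1.95 for CXCL16 and -3.87 for CX3CL1, the latter called in 4 of 24 alternatives. With the reads of a clone summed, none was kept between HT29 and HCT116 or between HCT116 and SW480. CXCL2 passed the filter within no single line.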

How the results depend on the processing

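Of the counts of called genes recomputed under an alternative, 184 stayed within 1.5 times the reported count and 59 did not, and the cause was not tested. In HT29 KO against WT (2 genes), 1 was called with edgeR, without the filter and without the clone KO 28, and 0 with a pseudocount of 0.1, with at least 10 in every library (CXCL1 and CXCL3 miss that filter), with the round as a replicate block, with the reads of a clone summed, with the clone as a random effect and without WT 11 or WT 40. Single libraries left out gave 0 to 1, and CXCL3 was not tested without a WT library or a WT clone. In HCT116 (0 genes), 1 was called without the filter (CXCL2) and without the clone KO 47 (CXCL16), and 0 to 1 with a library left out. In SW480 (3 genes), 5 were called without the filter, and 2 to 3 with a library left out. For WT levels, HCT116 against SW480 (3 genes) gave 1 with a pseudocount of 5 and with the clone as a random effect, and 1 to 3 with a library left out (1 without SW480 WT 4A). HT29 against SW480 gave 3 to 5 with a library left out (3 without WT 40A or 40B). For KO effects, HT29 against HCT116 (4 genes) gave 2 with a pseudocount of 0.1, 0 with clones summed and 1 with the clone as a random effect, HT29 against SW480 (6 genes) gave 2 with clones summed, and HCT116 against SW480 (2 genes) gave 1 with edgeR, DESeq2, a pseudocount of 0.1, no filter and the clone as a random effect, 0 with clones summed and 1 to 2 with a library left out. HT29 KO 28 against KO 38 gave 1 to 3 with a library left out, and WT 11 against WT 40 gave 1 with a pseudocount of 0.1 and 1 to 1 with a library left out. For single genes, 745 values kept direction and side of the threshold, 105 lost and 7 gained a call, and 8 reversed. In HT29 CXCL11 turned to 1.40 without KO 38 and 0.094 without WT 11, and CX3CL1 to 0.47 with edgeR, 0.49 with DESeq2, 0.072 with a pseudocount of 5, 0.76 without KO 28A, 0.43 without KO 28B (from -0.94 to 0.76 over single libraries left out) and 1.95 without the clone KO 28. Same-round libraries, which share only a round, deviated together in some pairs of HT29 (r from -0.309 to 0.424, over 0.1 in 2 of 6 pairs). In SW480 r was between -0.0411 and 0.127, over 0.1 in 1 of 6 pairs. Blocking on the round gave HT29 adjusted p-values of 0.0745 for CXCL1 and 0.0819 for CXCL3. At this depth levels under about 3 reads cannot be told from 0.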
